A study of Mus musculus with 12 samples.

Results

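The Toll-like receptors (TLRs) of fibroblasts and their adaptors were examined through 10 genes chosen by name, with earlier results of these data known. These were the receptor genes Tlr1, Tlr2, Tlr3, Tlr4, Tlr5 and Tlr6, the coreceptor genes Cd14 and Ly96, and the adaptor genes Myd88 and Ticam1. All 10 were found among the 49315 gene identifiers of the count tables, and all 10 were among the 17416 genes with enough counts to be tested. The counts came from 12 RNA-seq libraries of MAFs (mouse adult fibroblasts), which were taken from the ears of adult female mice and cultured as primary cells at 3% O2. WT cells came from C57BL/6 mice and KO cells from mice labelled BMAL1 -/-, after the circadian clock transcription factor BMAL1. Within each genotype, the controls had a sham irradiation and the senescent cells had received 20 Gy of X-rays, with 3 libraries in each of the 4 groups. The study's methods give weeks of further culture after the irradiation and state none for the controls. Irradiation and time in culture therefore cannot be told apart. Cells of all 4 groups were treated with 100 nM dexamethasone, a glucocorticoid that synchronises circadian clocks and is also known to dampen inflammatory gene expression, and were harvested after a further 12 h. The libraries therefore show 1 time of collection in cells that had met a glucocorticoid, and the labels name no added TLR ligand.

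TLRs are membrane proteins that sense molecules of microbes and some molecules released by damaged cells. TLR4 recognises lipopolysaccharide together with MD-2 (the product of Ly96) and CD14, TLR2 pairs with TLR1 or TLR6 to bind bacterial lipopeptides, TLR5 binds flagellin, and TLR3 binds double-stranded RNA in endosomes. MyD88 carries the signal of all of these receptors but TLR3 towards NF-kB and AP-1, while TRIF (the product of Ticam1) serves TLR3 and internalised TLR4 and leads to interferon regulatory factors. Fibroblasts are known to carry several of these receptors and to answer their ligands with chemokines and cytokines.

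Library totals were 23923030 to 31736083 counts, and 3 counts, used as the detection floor, stood for 0.101 to 0.135 CPM. CPM stands for counts per 1e+06 counts of the library, with totals scaled by TMM normalisation. Arntl, the annotated name of Bmal1, was at 29.8 to 33.2 CPM in WT control libraries, 35.2 to 37.4 CPM in WT senescent, 11.8 to 15.2 CPM in KO control and 25.3 to 27.5 CPM in KO senescent libraries. The KO libraries all lay under the lowest WT value, but Arntl counts rose in KO cells with senescence (log2 1.02, adjusted p = 1.96e-09) and more than in WT cells (interaction 0.82, adjusted p = 7.58e-05). A count over the whole gene need not cover the deleted part, so these values check the labels only in part. The fibroblast genes Col1a1, Col1a2, Pdgfra, Dcn, Lum, Thy1 and Vim summed to 16200 to 16500 CPM in WT control libraries and 7880 to 8110 CPM in WT senescent. In KO they summed to 20200 to 20800 CPM in control and 9910 to 10400 CPM in senescent libraries. At an adjusted p under 0.05, 4 of the 7 rose and 3 fell in WT senescent cells. In KO senescent cells 2 rose and 4 fell. Of all tested genes, 29.2% rose and 27% fell in WT, and 28.5% and 28.6% in KO. Transcripts of cartilage cells were also present: Acan, Col2a1, Col9a1 and Matn3 summed to 6520 to 8020 CPM in WT control libraries, 1710 to 1980 CPM in WT senescent, 4340 to 5860 CPM in KO control and 548 to 631 CPM in KO senescent libraries. The 11 macrophage genes summed to 10.6 to 16.7, 14.5 to 17.6, 9.68 to 13.8 and 11 to 15.9 CPM in the same order. Of these, Adgre1, Tyrobp, Cd163 and Itgam were at no more than 0.177, 0.135, 0.236 and 0.39 CPM, near the floor, whereas Ptprc was at 3.24 to 9.53 CPM and Csf1r at 1.93 to 3.42 CPM. Lyz2 went from 0.0451 to 0.764 CPM in control to 1.33 to 2.59 CPM in senescent WT libraries, and from 0.172 to 0.202 CPM to 2.33 to 3.13 CPM in KO. Summed keratinocyte markers were at 2.48 to 4.97 CPM in control and 7.88 to 10.1 CPM in senescent libraries. The tested ones, Krt5, Krt10 and Cdh1, rose in WT and in KO. Krt14 and Krt1 were not tested, at no more than 0.337 and 0.168 CPM, and their means did not rise. Krt14 means were 0.15 (control) and 0.0451 CPM (senescent) for WT, and 0.195 and 0.156 CPM for KO. Krt1 means were 0.0406, 0.0354, 0.0561 and 0.045 CPM in the same order. Endothelial markers summed to 1.94 to 8.14 CPM over all libraries. Dendritic cell markers summed to 2.65 to 2.89 CPM in control and 3.47 to 5.38 CPM in senescent WT libraries. The KO sums were 2.48 to 3.64 CPM and 4.49 to 5.64 CPM. Both tested ones (Itgax and Zbtb46) rose in both genotypes. Zbtb46 made up most of each sum, at group means from 2.48 to 4.47 CPM. Flt3 was not tested, at no more than 5 counts a library. Its mean was lower in senescent KO libraries (0.058 against 0.127 CPM) and higher in senescent WT ones (0.103 against 0.0692 CPM). The part of all these cells in the results was not tested. In bulk samples, fewer cells of a type and less RNA per cell cannot be told apart. Nothing in the labels says that the 3 libraries of a group came from separate mice or cultures, so p-values measure only the spread between these libraries. WT and KO counts were deposited as separate tables, so a difference in genotype and one in handling cannot be told apart when KO is set against WT. A shift shared by all libraries of a genotype drops out of the interaction, which is the senescence response (senescent over control, log2) of KO cells less that of WT cells.

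Levels of different genes were compared as RPKM, the CPM per kilobase of annotated exon. Myd88 had the highest RPKM of the 10 genes in every group, at 16.2 ± 0.34 in control and 14.8 ± 0.92 in senescent WT cells and at 15.1 ± 0.74 in control and 12.6 ± 0.45 in senescent KO cells (SD, n = 3 libraries, as in the rest of the text). It lay above 81.5% of all tested genes by its mean RPKM over the 12 libraries. The order of the next genes turned with senescence. In control cells Ticam1 exceeded Tlr4, at 6.85 ± 0.68 against 6.03 ± 0.39 RPKM in WT and 7.39 ± 0.47 against 5.38 ± 0.48 RPKM in KO. That order rests on the annotated exon lengths, 2992 bases for Ticam1 and 5556 for Tlr4, and the transcripts in use were not tested. In CPM Tlr4 exceeded Ticam1 in control cells too, at means of 33.5 against 20.5 in WT and 29.9 against 22.1 in KO. The closest WT control values were 6.33 RPKM for Ticam1 and 6.26 for Tlr4. In senescent cells Tlr4 exceeded Ticam1, at 9.76 ± 0.25 against 5.67 ± 0.15 RPKM in WT and 10.9 ± 0.54 against 5.99 ± 0.32 RPKM in KO, and the libraries of the 2 genes did not overlap in any of the 4 groups. Tlr2, Ly96, Tlr3 and Cd14 followed, with mean RPKM from 1.5 to 5.01. Libraries of Tlr2 and Ly96 overlapped in all 4 groups and those of Tlr3 and Cd14 in all but WT senescent cells, so neither pair could be ranked there. Tlr6 came next with means of 0.759 to 0.919 RPKM, and its libraries overlapped with those of neither neighbour in any group. Tlr1 and Tlr5 were the lowest, at means of 0.146 to 0.583 RPKM, from 14 to 65 counts a library for Tlr1 and from 9 to 64 for Tlr5. Their values carry the largest counting error of the 10.

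**Figure D1:**
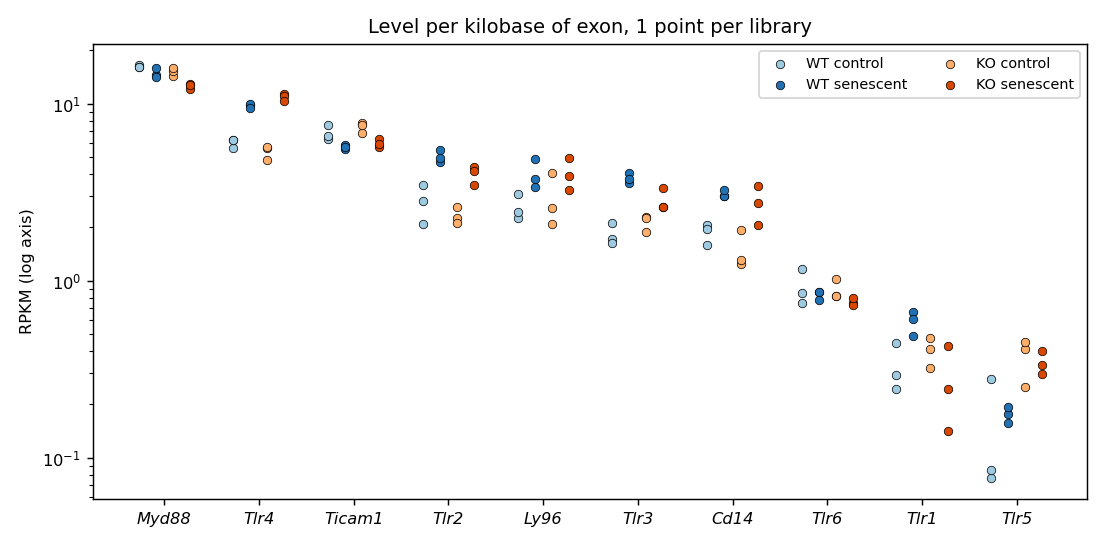
RPKM (log axis) of the 10 genes in each of the 12 libraries, 1 point per library, coloured by group and ordered from the highest mean to the lowest. Myd88 is highest throughout, Tlr4 lies below Ticam1 in control cells and above it in senescent cells, and Tlr1 and Tlr5 lie below 0.7 RPKM.

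Promoters were read because the study concerns BMAL1, whose binding motif is the E-box CACGTG, and AP-1, which binds TGACTCA or TGAGTCA. RefSeq promoter entries (GRCm38.p6) were found for 7 of the 10 genes, with 9 promoters in all, because Tlr1 and Tlr6 have a pair of start sites each. Tlr4, Cd14 and Ly96 had no entry and were not searched. The 250 bases before each start were searched on both strands. The E-box was found at Ticam1 and at 1 of the starts of Tlr1, against 6.02% of the 32851 promoters of all genes. Neither AP-1 sequence was found in any of the 9, against 4.46% of all promoters. An NF-kB site was found at Tlr2, where 2 overlapping matches cover 11 bases, and at Tlr3, against 7.25% of all promoters. The core of the interferon-stimulated response element (ISRE), a pair of GAAA with any 2 bases between them, was found at Myd88 and, as 2 overlapping matches on the opposite strand, at 1 start of Tlr6, against 2.98% of all promoters. These matches describe letters and not bound sites, and no link between a match and a change in counts was tested. Annotated exons cover all 30 bases of the Tlr1 window and of the Tlr3 window printed below, so the matches there lie inside exons. They cover 21 of the 60 bases at Tlr2, 23 of the 80 at Myd88 and 0 of the 80 at Ticam1. The E-boxes of Ticam1 (chr17:56276860-56276939, minus strand, first base of the match at -135 from the start) and Tlr1 (chr5:64932877-64932906, minus strand, at -195), the NF-kB sites of Tlr2 (chr3:83841747-83841806, minus strand, at -173) and Tlr3 (chr8:45410572-45410601, minus strand, at -211), and the ISRE core of Myd88 (chr9:119340019-119340098, minus strand, at -40) are given here in capitals within their surroundings, since each of these 5 genes changed in at least 1 comparison.
Ticam1: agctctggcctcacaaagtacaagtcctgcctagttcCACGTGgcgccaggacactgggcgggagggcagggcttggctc
Tlr1: ccggaaggcataCACGTGtccccatctctc
Tlr2: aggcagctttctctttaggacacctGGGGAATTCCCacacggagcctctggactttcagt
Tlr3: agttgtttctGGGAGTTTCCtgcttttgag
Myd88: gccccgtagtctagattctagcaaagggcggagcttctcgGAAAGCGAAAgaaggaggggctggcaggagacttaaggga

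The first comparison asked how the TLR genes changed with senescence in cells that had BMAL1. Of the 10 genes, 6 rose (Tlr1, Tlr2, Tlr3, Tlr4, Cd14 and Ly96) and 1 fell (Ticam1) in WT senescent cells at an adjusted p under 0.05, against 29.2% of all tested genes that rose and 27% that fell. Only the rise of Tlr3 also exceeded a log2 fold change of 1, the size that the study's methods require, which 11.6% of all genes did upwards and 5.9% downwards. With 1 library left out that rise ranged from 0.98 to 1.18, so it did not always exceed 1. The median log2 fold change of the 10 genes was 0.66, beside 0.02 over all tested genes. Libraries of the 2 groups did not overlap for 6 genes that were higher and 2 that were lower (Ticam1 and Myd88), against 33.4% and 29.7% of all genes.

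In KO cells, 4 genes rose (Tlr2, Tlr3, Tlr4 and Cd14) and 2 fell (Myd88 and Ticam1), against 28.5% and 28.6% of all tested genes. Tlr4 alone exceeded a log2 fold change of 1, against 11.2% of all genes upwards and 7.58% downwards. Its value ranged from 0.94 to 1.055 with 1 library left out, so it did not always exceed 1. The median of the 10 genes was 0.15, beside -0.00275 over all tested genes. There was no overlap between libraries for 4 genes that were higher and 3 that were lower (Myd88, Ticam1 and Tlr6), against 30.8% of all genes in each direction. The interaction passed for 3 genes, higher for Tlr4 and lower for Tlr1 and Tlr3, against 9.24% and 11.7% of all tested genes. Of these 3 only Tlr1 differed by more than 1 on the log2 scale, and it was lower, as 2.51% of all genes were and against 1.15% that were higher.

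**Figure D2:**
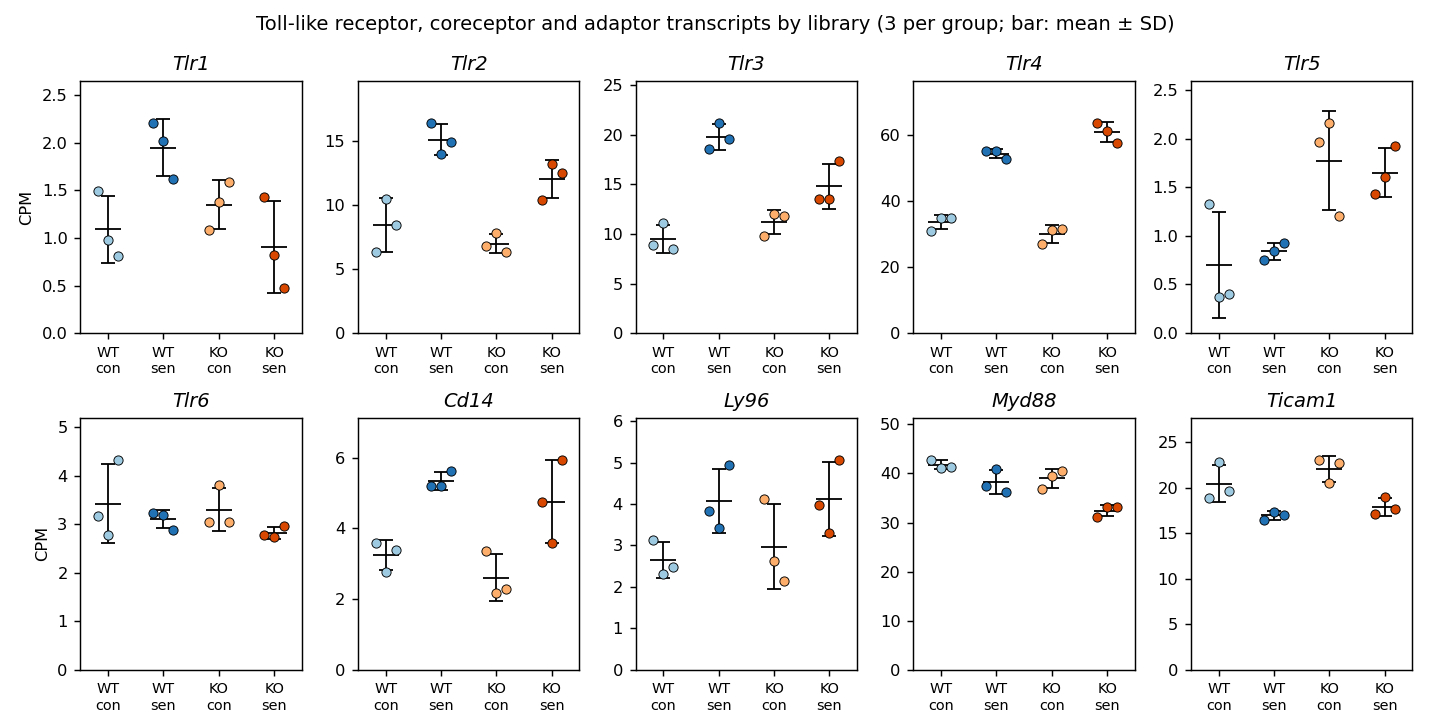
CPM of the 10 genes, each panel with its own axis from 0, 1 point per library in control and senescent cells of WT and KO, and a bar for the mean and SD of 3 libraries. Tlr2, Tlr3, Tlr4 and Cd14 are higher in every senescent library than in any control library of the same genotype, and Myd88 and Ticam1 are lower.

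Tlr4, the lipopolysaccharide receptor, had the highest RPKM of the 6 receptor genes in every group. It was at 31, 34.8 and 34.8 CPM in the 3 WT control libraries, 54.9, 55.1 and 52.6 CPM in WT senescent, 26.8, 31.3 and 31.5 CPM in KO control and 63.5, 61 and 57.5 CPM in KO senescent libraries. Every senescent library lay above every control library of either genotype, and every KO senescent library lay above every WT senescent one. Tlr4 (ENSMUSG00000039005, GRCm38 chromosome 4, 66827584 to 66930284, plus strand) rose 1.62-fold in WT cells (log2 0.69, SE 0.07, adjusted p = 2.84e-08) and 2.03-fold in KO cells (log2 1.02, SE 0.07, adjusted p = 6.5e-11). The response was larger in KO cells by 0.33 (SE 0.10, 95% confidence interval 0.12 to 0.53, adjusted p = 0.0224). The adjusted p of this difference was 0.0509 without WT control replicate 3 and 0.0642 without WT senescent replicate 3. It was 0.0538 and 0.0515 when replicate 1 of the KO control or of the KO senescent cells was left out, and the difference in these 4 fits was 0.25 to 0.30. Tlr4 is among the genes that the study itself picked from these libraries, so its inclusion is not independent of its response. The study named Tlr4 among genes called in KO but not in WT senescent cells. Its methods also require a log2 fold change over 1, which Tlr4 exceeded here in KO cells (1.02) and not in WT cells (0.69). The KO value lay close to that cutoff, with a 95% confidence interval of 0.87 to 1.17. With 1 library left out it ranged from 0.94 to 1.055, so the crossing of 1 depended on single libraries.

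Of the coreceptor genes of TLR4, Cd14 rose in both genotypes and Ly96 in WT cells. Cd14, which hands lipopolysaccharide to the receptor, was at 3.58, 2.77 and 3.39 CPM in the control and 5.2, 5.19 and 5.63 CPM in the senescent libraries of WT cells. In KO cells it was at 3.36, 2.16 and 2.28 CPM in control and 4.75, 3.58 and 5.94 CPM in senescent libraries. Senescent and control libraries did not overlap in either genotype. Cd14 (ENSMUSG00000051439, chromosome 18, 36725067 to 36726798, minus strand) rose 1.65-fold in WT cells (log2 0.72, SE 0.20, adjusted p = 0.00518) and 1.84-fold in KO cells (log2 0.88, SE 0.21, adjusted p = 0.00118). The interaction of 0.16 (95% confidence interval -0.45 to 0.77, adjusted p = 0.753) left room for a difference of either sign.

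Ly96, which encodes the lipopolysaccharide-binding partner MD-2, was at 3.14, 2.32 and 2.48 CPM in WT control libraries, 3.84, 3.43 and 4.94 CPM in WT senescent, 4.12, 2.63 and 2.15 CPM in KO control and 3.98, 3.3 and 5.07 CPM in KO senescent libraries. WT senescent libraries lay above WT control ones, whereas in KO cells the highest control library exceeded all but 1 senescent library. Ly96 (ENSMUSG00000025779, chromosome 1, 16688051 to 16709611, plus strand) rose 1.53-fold in WT cells (log2 0.62, SE 0.24, adjusted p = 0.0331). In KO cells its log2 fold change was 0.47 (SE 0.23, adjusted p = 0.0912), and the interaction was -0.14 (95% confidence interval -0.84 to 0.55, adjusted p = 0.812). The WT call was lost without WT control replicates 2 (0.110) or 3 (0.0808), without WT senescent replicates 1 (0.0513) or 3 (0.163), and under DESeq2 (adjusted p = 0.0513). The KO difference passed without KO control replicate 1 (log2 0.77, adjusted p = 0.00888) or without KO senescent replicate 2 (adjusted p = 0.0498).

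**Figure D3:**
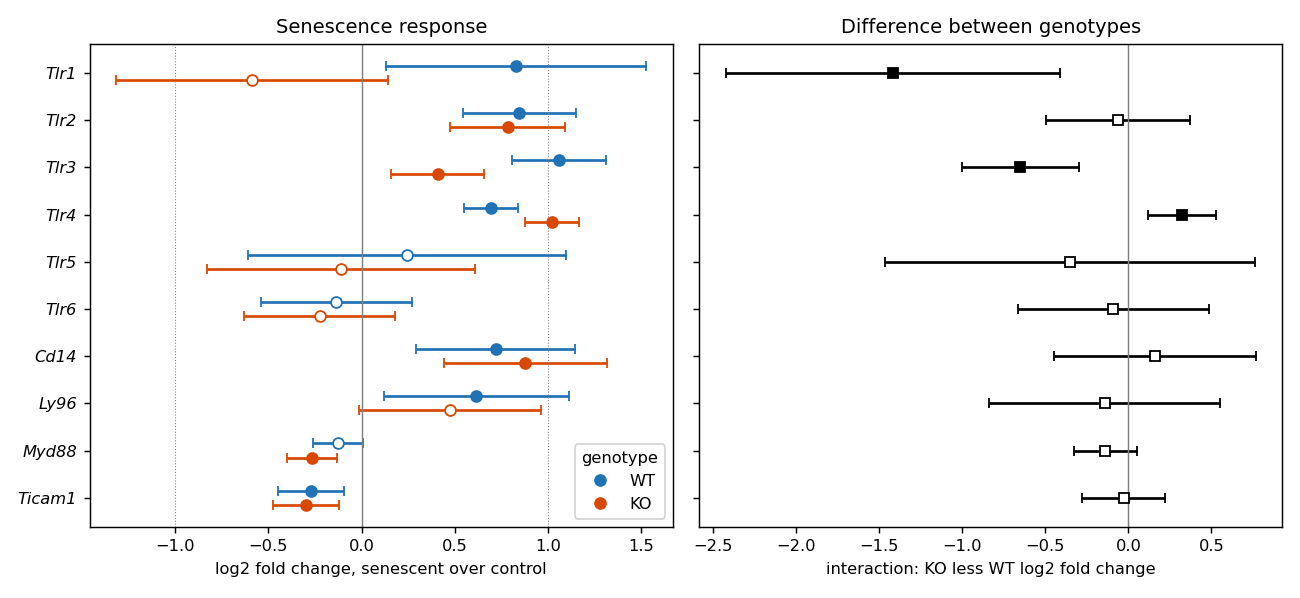
Left, log2 fold change of senescent over control cells for the 10 genes in WT (blue) and KO (red) cells, and right, the interaction (KO less WT). Bars are 95% confidence intervals, filled symbols passed an adjusted p of 0.05 and open ones did not, and dotted lines mark a log2 fold change of 1 in size. The filled interactions are those of Tlr1 (-1.42), Tlr3 (-0.65) and Tlr4 (0.33).

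Tlr3, the endosomal receptor for double-stranded RNA, had the largest rise of the 10 genes in WT cells and a smaller one in KO cells. The libraries held 8.89, 11.1 and 8.53 CPM of Tlr3 in WT control libraries, 18.6, 21.2 and 19.6 CPM in WT senescent, 9.84, 12 and 11.8 CPM in KO control and 13.5, 13.5 and 17.4 CPM in KO senescent libraries. Control libraries of the 2 genotypes overlapped, and all 3 KO senescent libraries lay between the control and the WT senescent ones. Tlr3 (ENSMUSG00000031639, chromosome 8, 45395665 to 45411080, minus strand) rose 2.08-fold in WT cells (log2 1.06, SE 0.12, adjusted p = 1.91e-07) and 1.33-fold in KO cells (log2 0.41, SE 0.12, adjusted p = 0.00645). The difference between the responses was -0.65 (SE 0.17, 95% confidence interval -1.005 to -0.295, adjusted p = 0.00962), opposite in sign to that of Tlr4. It passed in all 12 fits that left out 1 library, with values from -0.79 to -0.58 and adjusted p up to 0.0330. The KO rise on its own was lost without KO senescent replicate 3 (log2 0.27, adjusted p = 0.0654). Exons of Tlr3 share 381 of 5207 bases with Gm45542 on the opposite strand, a gene with at most 1 count a library.

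Tlr2, the shared partner of the lipopeptide receptors, rose in both genotypes. It was at 6.31, 10.5 and 8.44 CPM in WT control libraries, 16.4, 14 and 14.9 CPM in WT senescent, 6.8, 7.81 and 6.35 CPM in KO control and 10.4, 13.2 and 12.5 CPM in KO senescent libraries. Senescent and control libraries were separate within each genotype. Tlr2 (ENSMUSG00000027995, chromosome 3, 83836272 to 83841767, minus strand) rose 1.80-fold in WT cells (log2 0.85, SE 0.15, adjusted p = 4.8e-05) and 1.72-fold in KO cells (log2 0.78, SE 0.15, adjusted p = 0.000136). The interaction was -0.06 with a 95% confidence interval from -0.50 to 0.37 (adjusted p = 0.872), which spans responses both lower and higher in KO cells.

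Tlr1 and Tlr6 encode the partners of TLR2. Tlr1 was at 1.49, 0.977 and 0.813 CPM in WT control libraries, 2.21, 2.02 and 1.62 CPM in WT senescent, 1.08, 1.38 and 1.59 CPM in KO control and 1.43, 0.816 and 0.473 CPM in KO senescent libraries. WT senescent libraries lay above WT control ones, while in KO cells the senescent libraries spread from below to within the control range. Tlr1 (ENSMUSG00000044827, chromosome 5, 64924679 to 64933563, minus strand) rose 1.78-fold in WT cells (log2 0.83, SE 0.33, adjusted p = 0.0403) and had a log2 fold change of -0.59 in KO cells (SE 0.35, adjusted p = 0.160). The KO value ranged from -1.055 to -0.27 when 1 library was left out, and passed without KO senescent replicate 1 (-1.055, adjusted p = 0.0217). The interaction was -1.42 (SE 0.48, 95% confidence interval -2.43 to -0.41, adjusted p = 0.0419). Each of these calls rested on single libraries. The interaction was lost in 8 of the 12 fits without 1 library, with adjusted p up to 0.111 (without KO senescent replicate 3, where it was -1.10). It passed in the other 4 fits, which left out replicate 1 of any group but WT senescent, or replicate 3 of WT senescent cells, and was largest, at -1.89, without KO senescent replicate 1. The WT rise was lost without WT control replicates 2 or 3 or WT senescent replicates 1 or 2 (adjusted p from 0.0899 to 0.125) and under DESeq2 (adjusted p = 0.0656).

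Within groups, Tlr1 peaked in the same libraries as Ptprc, which encodes the pan-leukocyte protein CD45. Ptprc was at 9.53, 9.12 and 4.24 CPM in WT control libraries, 8.95, 5.25 and 7.22 CPM in WT senescent, 3.72, 8.08 and 8.72 CPM in KO control and 7.22, 3.3 and 3.24 CPM in KO senescent libraries, so that in each of the 4 groups the library with the most Ptprc also had the most Tlr1. Ptprc was picked out after its values were seen, and the summed macrophage list peaked with Tlr1 in 2 of the 4 groups only. In WT senescent cells the list was highest in replicate 3 (17.6 CPM, against 16.7 CPM in replicate 1), and in KO control cells in replicate 2 (13.8 CPM, against 13.3 CPM in replicate 3). Cd180 and Ly86, which encode the leukocyte TLR relative RP105 and its partner MD-1, were at 0.507 to 1.6 CPM and 0.269 to 1.29 CPM. Ptprc itself passed in no comparison of senescent with control cells (log2 -0.10 in WT, adjusted p = 0.868, and -0.59 in KO, adjusted p = 0.319). Of the 11 macrophage genes 5 had enough counts to be tested: Lyz2 and Cd68 rose and Mrc1 fell in WT cells, and Lyz2 rose in KO cells. The part of leukocyte RNA in the values of Tlr1 was not tested.

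Tlr6, the other TLR2 partner, was at 3.18, 2.77 and 4.33 CPM in WT control libraries, 3.23, 3.2 and 2.89 CPM in WT senescent, 3.04, 3.81 and 3.05 CPM in KO control and 2.78, 2.73 and 2.97 CPM in KO senescent libraries. Only in KO cells were the groups separate, with all senescent libraries lower. Tlr6 (ENSMUSG00000051498, chromosome 5, 64952031 to 64960097, minus strand) had log2 fold changes of -0.14 in WT cells (95% confidence interval -0.54 to 0.27, adjusted p = 0.581) and -0.23 in KO cells (95% confidence interval -0.63 to 0.18, adjusted p = 0.340). Tlr1 and Tlr6 are neighbouring paralogues with an identical run of 229 bases, and 139 of the 2876 stretches of 150 bases in the Tlr1 transcript also occur in Tlr6, so a read lying wholly in such a stretch matches both genes. Their counts are uncertain to that extent, and whether read pairs were lost was not tested.

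Tlr5, the flagellin receptor, was at 1.33, 0.366 and 0.406 CPM in WT control libraries, 0.748, 0.842 and 0.926 CPM in WT senescent, 1.96, 2.16 and 1.2 CPM in KO control and 1.43, 1.6 and 1.92 CPM in KO senescent libraries. One WT control library stood above all 3 WT senescent ones, and the other 2 stood below them. Tlr5 (ENSMUSG00000079164, chromosome 1, 182954788 to 182976044, plus strand) had log2 fold changes of 0.24 in WT cells (95% confidence interval -0.61 to 1.09, adjusted p = 0.640) and -0.11 in KO cells (95% confidence interval -0.83 to 0.61, adjusted p = 0.808). Without WT control replicate 1, the high library, the WT value was 1.10 (adjusted p = 0.0290), and without WT control replicate 2 it was -0.07.

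**Figure D4:**
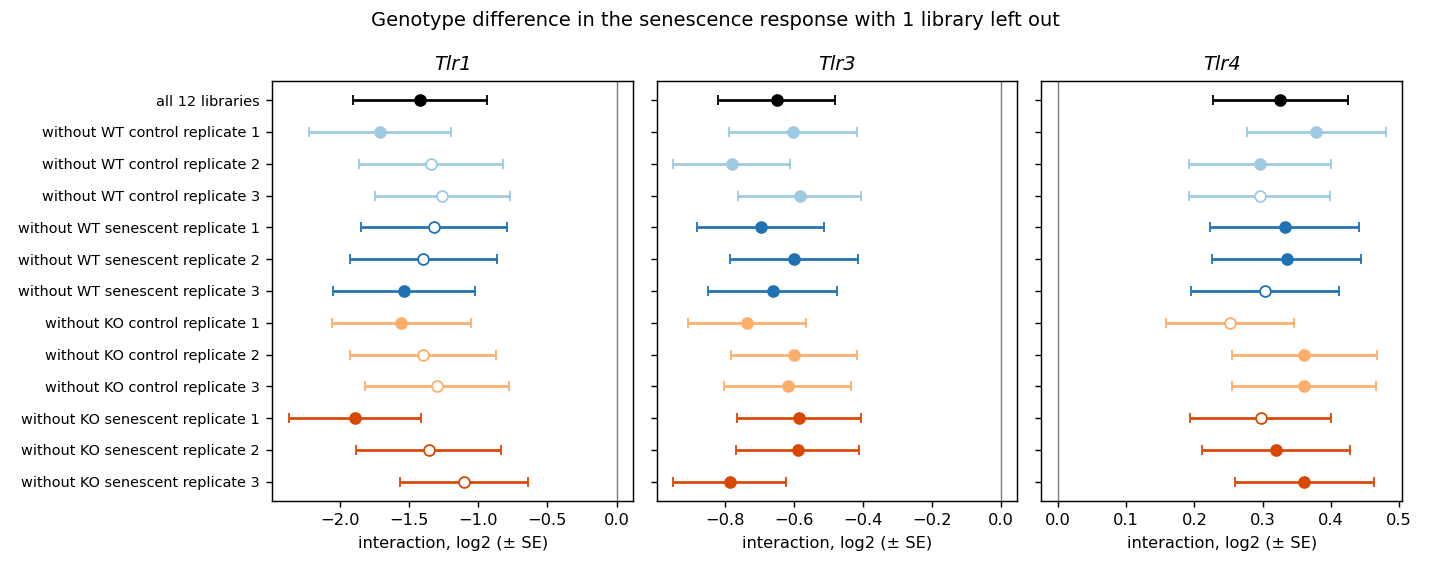
Interaction (KO less WT senescence response, log2, bars ± SE) of Tlr1, Tlr3 and Tlr4 with all 12 libraries and with each library left out in turn; filled symbols passed an adjusted p of 0.05 and open ones did not, and each panel has its own axis. Tlr3 stays filled throughout, Tlr4 is open in 4 of the 12 fits and Tlr1 in 8.

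Neither adaptor gene rose with senescence in either genotype. Myd88, the adaptor of all TLRs but TLR3 and of the IL-1 receptors, was at 42.8, 41.2 and 41.4 CPM in WT control libraries, 37.5, 40.9 and 36.3 CPM in WT senescent, 36.9, 39.5 and 40.6 CPM in KO control and 31.1, 33.1 and 33.1 CPM in KO senescent libraries. Senescent libraries were below control libraries in both genotypes, and the 3 KO senescent libraries were below all others. Myd88 (ENSMUSG00000032508, chromosome 9, 119335934 to 119341411, minus strand) fell in KO cells (log2 -0.27, SE 0.06, adjusted p = 0.00142) and had a log2 fold change of -0.13 in WT cells (SE 0.06, adjusted p = 0.0974). The WT value passed without WT senescent replicate 2 (log2 -0.18, adjusted p = 0.0432) and with WT libraries alone in the fit (log2 -0.16, adjusted p = 0.0355). The interaction was -0.14 (95% confidence interval -0.33 to 0.05, adjusted p = 0.313). Of its 2576 exon bases, 290 are shared with Acaa1a on the opposite strand, which fell by 0.25 in KO cells (log2, adjusted p = 0.00231) with an interaction of -0.37 (adjusted p = 0.00592). Use of strand in the counting is not stated, and the part of Acaa1a reads in the Myd88 counts was not tested.

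Ticam1, whose product TRIF serves TLR3 and TLR4, was at 18.9, 22.8 and 19.7 CPM in WT control libraries, 16.5, 17.4 and 17 CPM in WT senescent, 23.1, 20.5 and 22.7 CPM in KO control and 17.1, 19 and 17.7 CPM in KO senescent libraries. Senescent libraries were below control libraries in each genotype. Ticam1 (ENSMUSG00000047123, chromosome 17, 56269319 to 56276786, minus strand) fell in WT cells (log2 -0.27, SE 0.09, adjusted p = 0.0102) and in KO cells (log2 -0.30, SE 0.08, adjusted p = 0.00462), with an interaction of -0.03 (95% confidence interval -0.28 to 0.22, adjusted p = 0.903). The WT fall was lost without WT control replicate 2 (log2 -0.19, adjusted p = 0.0820). Ticam1 did not pass in either comparison of KO with WT cells (log2 0.11 in control, adjusted p = 0.460, and 0.08 in senescent cells, adjusted p = 0.548).

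KO and WT cells were next compared directly. In control cells 1 of the 10 genes was higher in KO, Tlr5, and 0 were lower, against 8.07% and 4.96% of all tested genes; 2 of the 10 had an unadjusted p under 0.05, and DESeq2 likewise called 1 higher and 0 lower. Tlr5 was 2.51-fold higher (log2 1.33, SE 0.38, adjusted p = 0.0250), past the size of 1 that 1.36% of all genes exceeded upwards and 1.18% downwards, although KO control replicate 3, at 1.2 CPM, lay below WT control replicate 1, at 1.33 CPM. This call was lost without KO control replicate 2 (adjusted p = 0.112) or WT control replicates 2 (0.107) or 3 (0.0840), and the difference reached 2.20 without WT control replicate 1. The other 9 genes had log2 differences from -0.32 (Cd14) to 0.30 (Tlr1). Myd88 was the one gene without overlap, every KO library being lower (log2 -0.10, adjusted p = 0.348), against 10.3% of all genes.

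In senescent cells 0 of the 10 genes were higher and 3 were lower in KO than in WT, against 11.9% and 11.8% of all tested genes. Tlr1 was 2.18-fold lower (log2 -1.12, SE 0.34, adjusted p = 0.0187), Tlr3 1.34-fold lower (log2 -0.42, SE 0.12, adjusted p = 0.0112) and Myd88 1.18-fold lower (log2 -0.24, SE 0.06, adjusted p = 0.0095), each without overlap between libraries. Acaa1a, whose exons overlap those of Myd88, was also lower in KO senescent cells (log2 -0.21, adjusted p = 0.0214), and its part in the Myd88 counts was not tested. Tlr1 alone passed the size of 1, which 1.29% of all genes exceeded upwards and 2.19% downwards. Tlr2 was also lower in every KO library but did not pass (log2 -0.32, adjusted p = 0.103). Tlr4 and Tlr5 were higher in every KO library and did not pass either (log2 0.16, adjusted p = 0.0882, and 0.98, adjusted p = 0.0595). Of the 10 genes 2 were thus separate upwards and 4 downwards, beside 21% of all genes in each direction. DESeq2 and edgeR with DESeq2 size factors each called Tlr4 as higher (adjusted p = 0.0391 and 0.0461), and without the filter on low counts Tlr5 was called higher (adjusted p = 0.0284) and Tlr2 lower (adjusted p = 0.0444). Leaving out 1 library ended the call of Tlr1 for WT senescent replicates 1 and 2 and KO senescent replicates 2 and 3 (adjusted p up to 0.117), that of Tlr3 for WT senescent replicate 2 and KO senescent replicates 1 and 2 (up to 0.0678) and that of Myd88 for WT senescent replicate 2 (0.0813).

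The other genes of the pathway were then taken from lists by role, which were also chosen with earlier results of these data known. They are to be read against the 29.2% of all tested genes that rose and 27% that fell in WT cells, and 28.5% and 28.6% in KO cells. Of the remaining mouse TLRs, Tlr7 and Tlr9 had enough counts to be tested, and Tlr8, Tlr11, Tlr12 and Tlr13 did not, with at most 0.309 CPM in any library. Tlr9, the receptor for unmethylated DNA, was at 0.0709 to 0.849 CPM and fell in KO cells (log2 -1.55, adjusted p = 0.0321). Among 10 other adaptors, coreceptors and chaperones, 3 rose and 3 fell in WT cells, and 4 rose and 5 fell in KO cells, beside those shares of all genes. Lbp, the serum protein that delivers lipopolysaccharide to CD14, rose in WT cells (log2 1.22, SE 0.17, adjusted p = 0.000119) and in KO cells (log2 0.54, adjusted p = 0.0198), and its interaction did not pass (log2 -0.68, adjusted p = 0.0738). Hsp90b1, the chaperone gp96 that most TLRs need to fold, fell in both genotypes (log2 -1.48 and -1.35, SE 0.04 each, adjusted p = 3.35e-16 and 6.82e-16). Unc93b1, which carries TLR3 and other nucleic acid receptors to endosomes, rose more in WT cells (log2 0.92) than in KO cells (log2 0.43), with an interaction of -0.48 (adjusted p = 0.00889), the same sign as that of Tlr3. Unc93b1 was picked out after its values were seen.

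Kinases and ligases pass the signal on from the adaptors. Of 16, 3 rose and 3 fell in WT cells (29.2% and 27% of all genes) and 5 rose and 5 fell in KO cells (28.5% and 28.6%), with medians of -0.03 and -0.01 beside 0.02 and -0.00275 over all genes. Irak2, a kinase of the MyD88 complex, was the one with a change over 1, in KO cells (log2 1.17, SE 0.10, adjusted p = 4.92e-09), and rose by 0.80 in WT cells (log2, adjusted p = 1.37e-06). Its interaction did not pass (log2 0.37, adjusted p = 0.0861). Of 8 NF-kB and interferon regulatory factors, 4 rose and 3 fell in WT cells and 4 rose and 4 fell in KO cells, beside the same shares. Irf7, an inducer and target of interferon, rose in WT cells (log2 3.02, SE 0.36, adjusted p = 2.84e-05), from 1.81 to 2.01 CPM in control to 11.6 to 20 CPM in senescent libraries. In KO cells Irf7 rose from 2.28 to 3.2 CPM to 6.25 to 14.6 CPM (log2 1.82, SE 0.34, adjusted p = 0.000903), and the interaction did not pass (log2 -1.19, adjusted p = 0.129). Irf5, which acts below MyD88, rose in WT cells (log2 0.70, adjusted p = 0.0106) and fell in KO cells (log2 -0.60, adjusted p = 0.0150), with an interaction of -1.30 (SE 0.30, adjusted p = 0.00399). Its control level was 1.91 to 2.44 CPM in WT and 5.62 to 6.24 CPM in KO libraries. Of 8 inhibitors tested, 2 rose and 1 fell in WT cells and 3 rose and 1 fell in KO cells, again beside 29.2% and 27% of all genes in WT and 28.5% and 28.6% in KO.

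**Figure D5:**
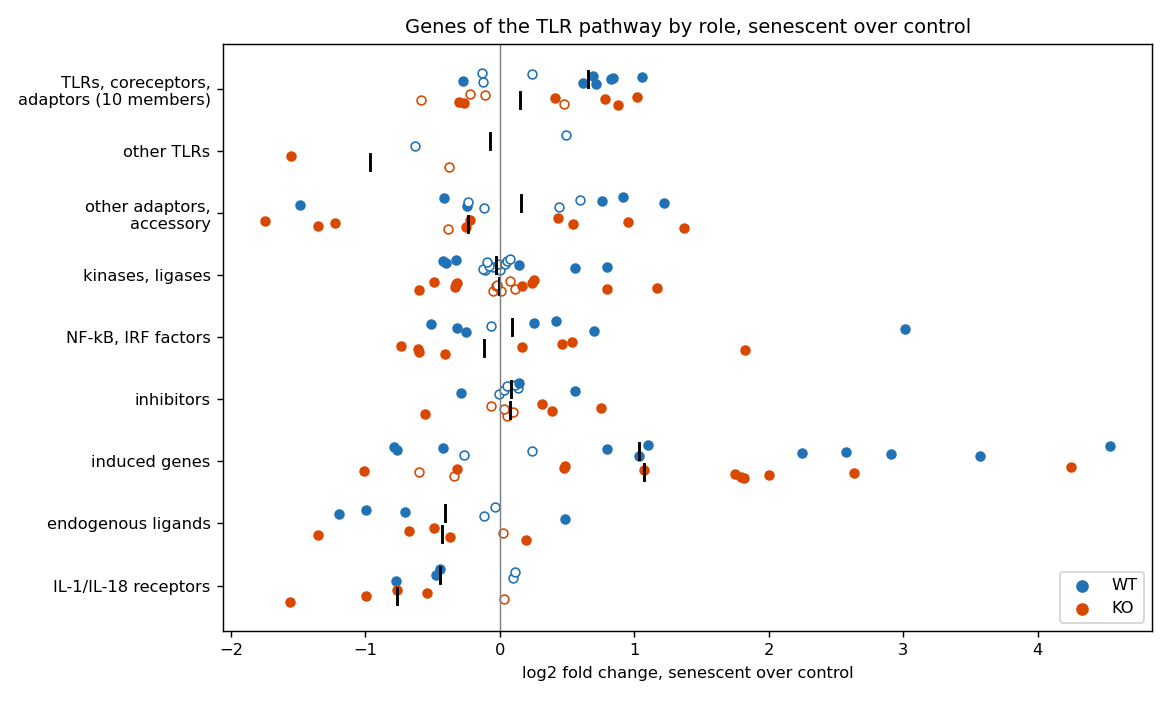
Log2 fold change of senescent over control cells for each tested gene of the TLR pathway, by role, in WT (blue, upper row of each list) and KO (red, lower row) cells. Filled circles passed an adjusted p of 0.05, open ones did not, and black ticks are list medians, which are 0.66 and 0.15 for the 10 receptor, coreceptor and adaptor genes and 1.03 and 1.07 for the induced genes.

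Genes that TLR signalling is known to induce were measured as a readout list, although many other signals induce them. Of 18, 13 had enough counts to be tested. In WT cells 8 rose and 3 fell, against 29.2% and 27% of all genes, and in KO cells 9 rose and 2 fell, against 28.5% and 28.6%. The medians were 1.03 and 1.07, beside 0.02 and -0.00275 over all genes. Saa3, an acute-phase gene, was at 0 to 0.172 CPM in control libraries and at 1.47 to 2.24 CPM in senescent ones (log2 4.54, SE 0.50, adjusted p = 9.97e-08 in WT, and 4.25, SE 0.49, adjusted p = 1.95e-07 in KO). Icam1, an adhesion molecule for leukocytes, rose in both genotypes (log2 2.58 and 2.64, adjusted p = 3.34e-17 and 4.4e-17), and so did the interferon-inducible chemokine Cxcl10 (log2 2.91, SE 0.50, adjusted p = 9.6e-05 in WT, and 2.00, adjusted p = 0.00423 in KO). For Cxcl10 the interaction did not pass (log2 -0.91, adjusted p = 0.453). Il6 fell in both (log2 -0.76 and -1.01, adjusted p = 0.000211 and 1.16e-05), and Tnf and Ifnb1 were at no more than 0.0859 CPM in any library. Ptgs2, the inducible prostaglandin synthase, fell in WT cells (log2 -0.78, adjusted p = 0.00531) and rose in KO cells (log2 0.48, adjusted p = 0.0494), with an interaction of 1.26 (SE 0.26, adjusted p = 0.00905). Il6 was picked out after its values were seen, as were Tlr9, Tnf and Ifnb1. Counts of cartilage genes, given above, fell with senescence in both genotypes and fell further in KO cells, and their part in the values of the 10 genes and of these lists was not tested.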

How the data were processed

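Raw gene counts of 12 libraries were used as deposited. Per the labels and the study's methods, the authors enriched mRNA with oligo(dT) beads and prepared NEBNext Ultra II libraries, and the submitters' processing notes name bcl2fastq 2.17, Trimmomatic 0.36, STAR 2.5.2b and the GRCm38 build; featureCounts assigned uniquely mapped reads in exons to genes. The annotation release and the use of strand are not given in the sources used here. The reads carried no molecular identifiers, so floors and intervals cover counting error and library spread only. Libraries of a group differed by more than sampling noise, and none was counted as a duplicate.

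Symbols, exon lengths and overlaps came from the GENCODE annotation of GRCm38. Tests used edgeR 4.0.16 (R 4.3.3): filterByExpr over the 4 groups, TMM, 1 mean per group over all 12 libraries, and robust quasi-likelihood F-tests with Benjamini-Hochberg adjustment over 17416 genes. An unnamed adjusted p is from this test, passing means under 0.05, and SE is the absolute log2 fold change over the square root of F. Intervals are 95%. DESeq2 1.42.0 was an alternative, beside its size factors, no filter, a replicate block, own-genotype fits and leaving out each library. The code was tested on simulated counts. The 10 genes and all lists were chosen with earlier results of these data known. Named pathway genes were the 2 largest log2 fold changes over 1 per list in each senescence comparison and the interaction, at a mean of at least 1 CPM. Promoter sequences came from RefSeq (GRCm38.p6).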

Additional observations from a re-analysis of the deposited data

Results flagged for a closer look

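For 3 of the 10 genes the test of the difference itself showed a senescence response that differed between KO and WT cells, 1 higher and 2 lower in KO, against 9.24% and 11.7% of all tested genes. The response of Tlr3 differed by -0.65 (edgeR quasi-likelihood adjusted p = 0.00962), with all 6 senescent libraries above the control libraries of their genotype, and the WT senescent ones above the KO senescent ones. The response of Tlr4 differed by 0.33 (adjusted p = 0.0224) in the other direction, again with all 6 senescent libraries above their controls. The response of Tlr1 differed by -1.42 (adjusted p = 0.0419), with 3 of 3 WT senescent libraries above all WT controls and 2 of 3 KO senescent libraries below all KO controls, at 14 to 65 counts a library. None of the other 7 genes passed this test. With 1 library left out in turn, Tlr3 passed in all 12 fits, whereas the call was lost in 4 of the 12 for Tlr4 and in 8 for Tlr1.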

How the results depend on the processing

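Under the alternatives other than leaving out a library, the number of genes that passed moved by more than 1.5 times in 4 cases. In the comparison of KO with WT senescent cells the genes called higher went from 0 to 1 with DESeq2 size factors, with DESeq2 and without the filter, and the genes called lower in WT senescence went from 1 to 2 with WT libraries alone. Smaller moves were from 6 to 4 genes higher in WT senescence with DESeq2, which lost Tlr1 and Ly96, and from 3 to 4 lower in KO than WT senescent cells without the filter, which added Tlr2. The interaction of Ticam1 changed sign, from -0.03 to 0.0015 with DESeq2 size factors and 0.0040 with DESeq2. Leaving out each library gave 4 to 7 genes higher and 0 to 2 lower in WT senescence, 3 to 5 higher and 2 to 3 lower in KO senescence, 0 to 1 higher and 1 to 2 lower in the interaction, 0 to 1 higher and 0 lower between control cells, and 0 higher and 0 to 3 lower between senescent cells. WT control replicate 2 and WT senescent replicate 2 took the genes lower in WT senescence to 0 and 2, and without WT senescent replicate 2 the count of genes lower in KO among senescent cells was 0.

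Values that changed sign when 1 library was left out were those of genes that had not passed. In the interaction they ranged from -0.32 to 0.16 for Ly96, -0.11 to 0.0259 for Ticam1, -0.26 to 0.11 for Tlr2, -0.30 to 0.0403 for Tlr6 and -0.0381 to 0.38 for Cd14. In WT senescence they ranged from -0.0749 to 1.10 for Tlr5 and -0.27 to 0.0635 for Tlr6, and in KO senescence from -0.32 to 0.0545 for Tlr5. Between control cells they ranged from -0.18 to 0.16 for Tlr6 and -0.14 to 0.34 for Ly96, and between senescent cells from -0.36 to 0.00445 for Cd14 and -0.16 to 0.18 for Ly96. The cause was not tested.

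Same-numbered libraries did not deviate together (correlations of deviations from group means from -0.185 to 0.16), so the numbers were not taken to pair them, and not every library correlated best with its own number. With a replicate block the counts were as without it, 6 higher and 1 lower, 4 and 2, 1 and 2, 1 and 0, and 0 and 3, and no call of the 10 genes changed. Over all alternatives 510 log2 fold changes kept direction and side of the threshold, 35 lost and 10 gained significance. Counts of 14 to 65 for Tlr1 and 9 to 64 for Tlr5 limit what could be detected for them.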

Other observations

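Receptors of the interleukin-1 family share the MyD88 route with the TLRs. Of 5 such genes (Il1r1, Il1rap, Il1rl2, Il18r1 and Il18rap), 0 rose and 3 fell in WT cells with senescence, and 0 rose and 4 fell in KO cells, against 29.2% and 27% of all tested genes in WT and 28.5% and 28.6% in KO (edgeR quasi-likelihood test). Il1rl1, of the same family, was counted among the inhibitors. Il1r1, the signalling receptor for interleukin-1, went from 151 to 160 CPM in WT control to 109 to 113 CPM in WT senescent libraries, and from 159 to 172 CPM to 74.1 to 95.8 CPM in KO. It fell by 0.48 (adjusted p = 4.48e-06) and by 1.00 (adjusted p = 1.01e-10) on the log2 scale, and the responses differed by -0.52 (adjusted p = 0.000768). Il18r1, the receptor for interleukin-18, fell by 1.56 in KO cells (log2, SE 0.30, adjusted p = 0.000123) and by 0.78 in WT cells (log2, adjusted p = 0.0230), and its interaction did not pass (log2 -0.79, adjusted p = 0.190).

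Of 6 tested genes for endogenous TLR ligands, 1 rose and 3 fell in WT cells and 1 rose and 4 fell in KO cells, against 29.2% and 27% of all tested genes in WT and 28.5% and 28.6% in KO. Hmgb1, a chromatin protein that can act on TLR4 when released, fell in both genotypes (log2 -1.20, SE 0.06, adjusted p = 1.93e-13 in WT, and -1.36, SE 0.06, adjusted p = 2.3e-14 in KO). Bgn, the matrix proteoglycan biglycan and a ligand of TLR2 and TLR4, rose in both (log2 0.49, adjusted p = 6.49e-09, and 0.20, adjusted p = 0.000682), with a difference of -0.29 (adjusted p = 0.00244). Il1r1 and Bgn were picked out after their values were seen. S100a8 was at no more than 0.502 CPM in any library, and S100a9 had 0 counts in all 12, which the floor of 0.101 to 0.135 CPM bounds.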
